A study of Mus musculus with 16 samples.

Results

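The transcriptome of p53−/−; Myc hepatoblasts that had been kept in sorafenib for 7 days was compared with that of the same cells after 48 hours of the drug, to ask how the response to sorafenib changed as exposure went on. The comparison rests on the 8 sorafenib libraries among 16, 4 at each time, chosen by their labels alone, and on the 20444 of 40840 genes that had at least 10 counts in total over the 16 libraries. All cells came from a single mouse liver progenitor line, knockout for the tumor suppressor p53 and overexpressing the Myc oncogene, which the labels also class as HCC. Sorafenib was given at 8.5 µM, and the 8 remaining libraries were from cells that had received the vehicle DMSO for 48 hours or 7 days, again 4 at each time. These vehicle libraries share no sample with the sorafenib comparison and show for each gene how the cultures moved over the same time without the drug. The labels do not say whether the 4 replicates of a group were separate cultures, so p-values measure the spread between libraries, part of which may be technical. Because the libraries are bulk RNA from a culture, fewer cells of a kind and less RNA per cell cannot be told apart.

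Sorafenib blocks several kinases, among them RAF kinases of the ERK pathway and the receptors for VEGF and PDGF, and is used in advanced hepatocellular carcinoma. Interferon-stimulated genes encode antiviral proteins and are switched on by factors downstream of the interferon receptors, or directly by IRF3, through a DNA element called the ISRE. Cholesterol synthesis is controlled as a block by the factor SREBP2, which enters the nucleus when sterols are short, and the NF-Y factor that binds CCAAT boxes works beside it. H19, Igf2 and Dlk1 are fetal genes that are abundant in the embryonic liver and fall silent after birth.

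Both genes that define the line were counted in every library. Trp53 read 1782, 1917, 1766 and 1908 normalized counts at 48 hours of sorafenib and 2785, 2495, 2486 and 2514 at 7 days, and Myc read 10188, 6390, 9564 and 9754 at 48 hours and 10769, 10416, 10448 and 10071 at 7 days. Trp53 was higher in all 4 libraries at 7 days (log2 fold change 0.48 ± 0.06 SE, edgeR adjusted p = 1.6e-06) and moved the opposite way in DMSO (−0.80). Counts per gene do not show which part of Trp53 is transcribed, so they do not check the knockout. Myc was not called (0.22, adjusted p = 0.0674), with a lower value in replicate 2 at 48 hours than in the other 7 sorafenib libraries. Myc lies in the stretch of chromosomes described next, and without that library it was called higher by 0.0843 (edgeR adjusted p = 0.0185). DESeq2 and both other scalings of the libraries called Myc higher as well, by 0.248, 0.247 and 0.253.

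Total counts ran from 16586254 to 27352812 in the libraries of 48 hours of sorafenib and from 22302847 to 30828427 in those of 7 days. Replicates differed in log2 ratio by an SD of 0.11 to 0.16 across genes, except in pairs with replicate 2 of sorafenib at 48 hours, which reached 0.33 to 0.34. In that library the counts of genes from distal chromosome 14 (the first gene after the step is Stk24) through X stood at 0.605 times the level of the other libraries, and 14.2% of its counts lay in this stretch, against 20.5 to 21.3% elsewhere. No other library had a step beyond −0.04 on the log2 scale. Of 17946 tested genes with a known position, 3857 lay in the stretch. Values without this library are given below for some of the genes and lists in that stretch.

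The labelled liver identity was thin in the counts. Alb, the main plasma protein of hepatocytes, had 3 counts in all over the 16 libraries, and Hnf4a, the central hepatocyte factor, had 0. Afp had at most 7 counts in any sorafenib library, whereas the early liver factor Foxa2 and the bile duct keratin gene Krt19 were plainly present, with 524 to 1055 and 865 to 1709 counts. The keratin genes Krt18 and Krt8 of the hepatocyte list had 99 to 229 and 24 to 80 counts there, and Apoa1 had at most 3. Of the 8 hepatocyte or hepatoblast markers, 6 passed the filter, as did 5 of 5 for bile duct, 8 of 10 for fibroblasts and stellate cells, 9 of 10 for endothelium and 3 of 10 for blood and Kupffer cells. That filter took only 10 counts over the 16 libraries, so passing it does not show clear expression. The endothelial markers Emcn, Clec4g and Pecam1 had 11, 11 and 52 counts in all, and the hepatocyte marker Ttr had 12. The collagen genes Col1a1 (39863 to 81817 counts) and Col3a1 (8944 to 82364) were abundant in every library, but Col1a2 had only 48 to 334. Of the same marker list, Dcn had 911 to 5889 counts per library and Pdgfrb 434 to 2011. Lum, Des and Rgs5 had at most 41, 114 and 33 in any library, and Lrat and Reln had 0 and 4 counts in all over the 16 libraries. The blood cell gene Ptprc had at most 4 counts in any library.

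Between 48 hours and 7 days of sorafenib, 8120 genes were called at an FDR under 0.05 in edgeR's quasi-likelihood test, 39.7% of those tested. Of these, 3570 (17.5%) were higher and 4550 (22.3%) lower at 7 days. That split followed the scaling of the libraries, with 4047 higher and 3935 lower by total counts alone and 3966 and 4113 by DESeq2. A change of at least 2-fold was seen in 975 of the genes that rose and in 752 of those that fell. The libraries of the 2 times did not overlap for 7317 genes (35.8%). Without replicate 2 at 48 hours, 9047 of 20353 genes were called (44.5%). Of these, 7684 were called in both fits with 1 sign, and 0 changed sign. In the stretch from chromosome 14 through X the calls were 752 up and 472 down with this library, and 738 up and 1075 down without it.

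The vehicle cultures changed over the same days as well. DMSO libraries at 7 days differed from those at 48 hours in 10100 genes (49.4%), 4879 up (23.9%) and 5221 down (25.5%). Of the 8120 genes called in sorafenib, 4206 moved alike in DMSO, 1429 moved the opposite way and 2485 were not called there. The difference between the 2 time changes was itself called for 7515 genes (36.8%), with the sorafenib change more positive in 3162 (15.5%) and more negative in 4353 (21.3%). With libraries scaled by total counts alone, which moved the median difference over all genes to 0.12 from 0.02, that split turned to 4125 more positive and 3292 more negative. The difference was called for 1857 of the genes that moved alike, 1429 of those that moved oppositely and 1336 of those not called in DMSO. The log2 changes in sorafenib and DMSO had a Pearson r of 0.369 over the 10646 genes whose mean normalized count was 100 or more, and of 0.192 over all tested genes. These are correlations across genes, which are not independent replicates.

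**Figure D1:**
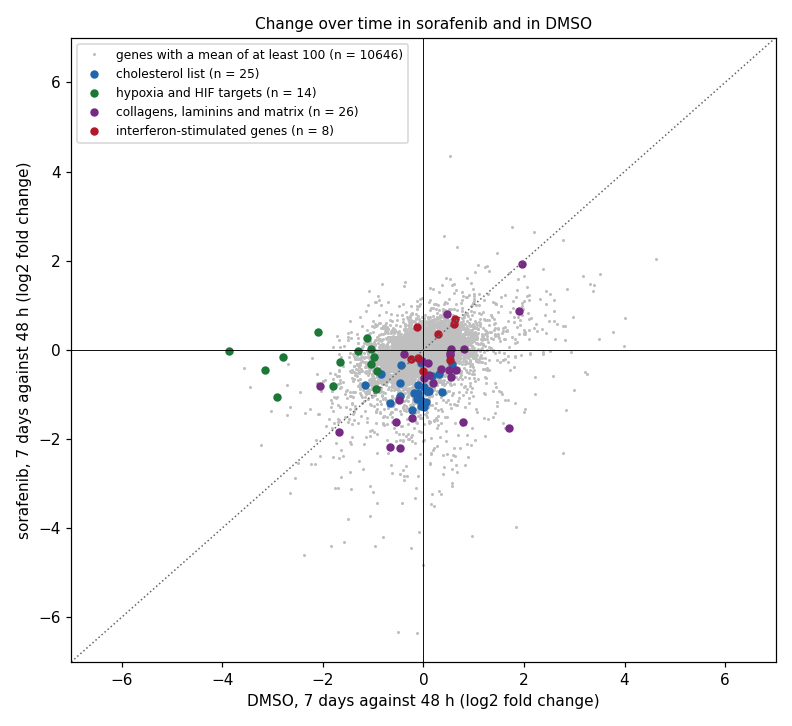
Log2 fold change from 48 hours to 7 days in sorafenib (vertical axis) against that in DMSO (horizontal axis) for the 10646 genes whose mean normalized count was 100 or more, 1 point a gene, with equal change on the dotted line. The cholesterol list lies below 0 in sorafenib and near 0 in DMSO, the hypoxia list lies far to the left at small sorafenib changes, and only 8 of the 24 interferon-stimulated genes are abundant enough to be drawn.

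Gene lists showed which programs moved together. The median log2 change over all genes was 0.01 in sorafenib and −0.01 in DMSO. Lists were drawn up with earlier results of these data known, so their counts describe the members and are not independent evidence of a direction.

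**Figure D2:**
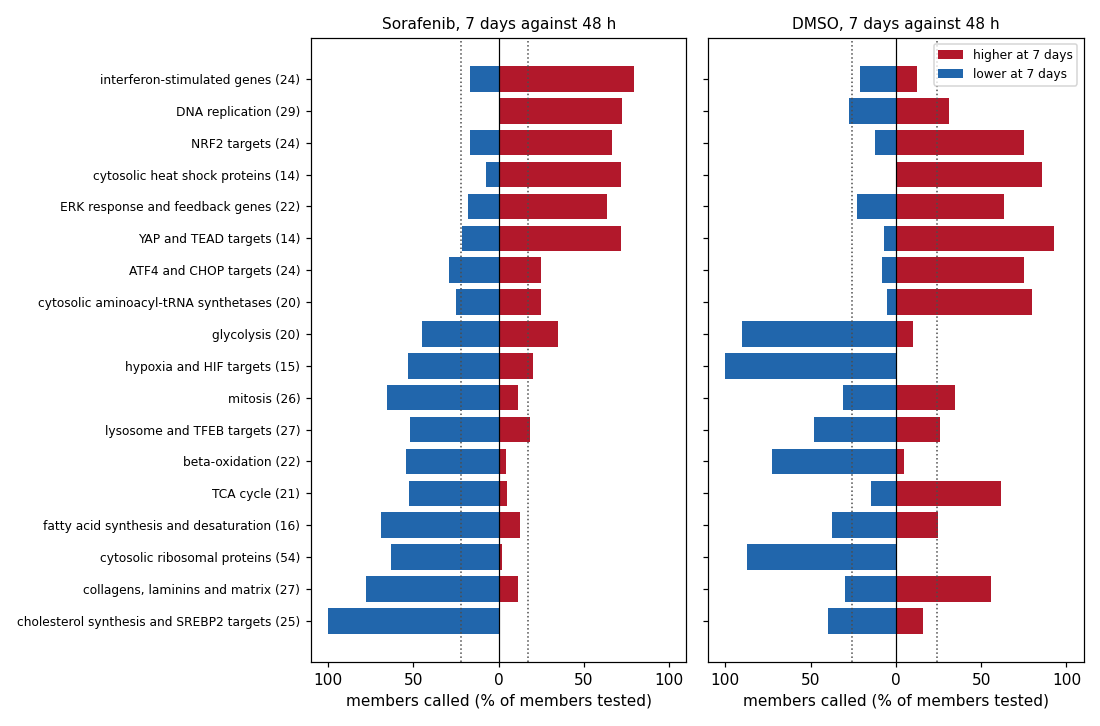
Members called higher (red, to the right) and lower (blue, to the left) at 7 days than at 48 hours, in percent of the members tested, for 18 gene lists in sorafenib (left panel) and DMSO (right panel), with the number of members tested in parentheses. Dotted lines give the share over all genes. Interferon-stimulated and DNA replication genes reach far to the right in the sorafenib panel, and 25 of 25 cholesterol genes lie to the left there.

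Interferon-stimulated genes rose between 48 hours and 7 days of sorafenib. Of the 24 measured, 19 were higher at 7 days and 4 lower, against 17.5% and 22.3% of all genes, and their median log2 change was 2.04. In DMSO 3 were higher and 5 lower, with a median of −0.07. The difference between the time changes was called for 16 of the 24, 14 of them more positive in sorafenib.

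The largest change was in Rsad2, which encodes the antiviral enzyme viperin. It had 1.4, 1.51, 0.952 and 0 normalized counts at 48 hours of sorafenib, 3 reads in all, and 42.7, 31.7, 34.1 and 40.3 at 7 days. The groups were far apart, and the ratio of the summed counts was 40.4 (95% interval 13.6 to 198, exact, counting error only). Rsad2 was not called in DMSO, where its mean went from 0.255 to 1.65, and the difference of the time changes was not called either (adjusted p = 0.346). Oasl1, an antiviral protein related to the oligoadenylate synthetases, read 0, 1.51, 7.61 and 3.41 at 48 hours and 87.7, 84.5, 77.8 and 82.6 at 7 days. Every 7-day library lay far above every library of 48 hours (log2 fold change 4.48 ± 0.34, adjusted p = 1.74e-09), and the DMSO means of 5.1 and 3.37 did not differ by the test. Usp18, the protease that removes ISG15 and restrains interferon signalling, had 1 read over the 4 libraries of 48 hours and 45 over those of 7 days, a ratio of 34.7 with a counting interval of 5.92 to 1400. DMSO did not move alike for either gene, and the difference was called for both (5.11 and 5.61).

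Ifit1, which binds foreign RNA, Isg15, the ubiquitin-like modifier, and the sensors Ifih1 and Ddx58 were looked at after their values were seen. Ifit1 read 4.21, 4.54, 13.3 and 6.81 at 48 hours and 153, 122, 123 and 128 at 7 days. For Isg15 the values were 9.82, 3.02, 10.5 and 7.95, then 86.6, 95.8, 96.2 and 79.7. Neither gene's groups overlapped, with log2 changes of 4.04 ± 0.26 and 3.44 ± 0.24. Isg15 fell in DMSO (−1.20) and Ifit1 was not called there. Ifih1, the sensor MDA5 for long double-stranded RNA, went from 58.1 ± 2.62 to 202 ± 19.6 (SD, n = 4, log2 1.81) and was not called in DMSO. Ddx58, the sensor RIG-I, rose by 0.68 in sorafenib and by 0.62 in DMSO, and that difference was not called.

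Members that fell included the signalling factor gene Stat2 (−0.19), with Bst2 (−0.47) and Trim25 (−0.18). Gbp2, a GTPase induced by interferon, stood lower in sorafenib than in DMSO at both times. Its means at 48 hours and 7 days were 167 and 107 in DMSO and 11.3 and 62.8 in sorafenib, so it rose in sorafenib (2.48) towards a level that fell in DMSO (−0.65). The family members Ifit1, Ifit3 and Ifit3b, Oasl1 and Oasl2, and Gbp2 and Gbp3 have near copies of each other, and reads may have been split among them. Of the list, 5 members lie in the stretch that was low in replicate 2. Without that library 18 rose and 4 fell.

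Promoters of the 3 members with the largest change and an entry in the promoter table are shown because the ISRE of interferon-stimulated genes can be looked for in them. Each is the RefSeq window from 250 bases before to 50 after the gene's start (GRCm38.p6, 5′ to 3′), and capitals mark the ISRE core, GAAA and GAAA with 2 bases between them, on either strand.
Rsad2, chr12:26456403-26456702, - strand: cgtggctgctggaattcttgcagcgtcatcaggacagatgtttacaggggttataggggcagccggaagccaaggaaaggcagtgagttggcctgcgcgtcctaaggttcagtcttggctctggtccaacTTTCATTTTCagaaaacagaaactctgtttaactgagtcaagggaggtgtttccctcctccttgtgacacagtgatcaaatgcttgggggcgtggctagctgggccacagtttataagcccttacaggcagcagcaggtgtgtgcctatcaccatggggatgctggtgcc
Oasl1, chr5:114922990-114923289, + strand: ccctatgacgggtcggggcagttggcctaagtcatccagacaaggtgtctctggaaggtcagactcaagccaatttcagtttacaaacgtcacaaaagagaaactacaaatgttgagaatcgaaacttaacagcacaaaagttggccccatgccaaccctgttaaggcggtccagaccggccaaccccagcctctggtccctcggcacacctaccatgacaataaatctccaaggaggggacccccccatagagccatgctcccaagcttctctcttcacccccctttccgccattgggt
Ifit1, chr19:34640639-34640938, + strand: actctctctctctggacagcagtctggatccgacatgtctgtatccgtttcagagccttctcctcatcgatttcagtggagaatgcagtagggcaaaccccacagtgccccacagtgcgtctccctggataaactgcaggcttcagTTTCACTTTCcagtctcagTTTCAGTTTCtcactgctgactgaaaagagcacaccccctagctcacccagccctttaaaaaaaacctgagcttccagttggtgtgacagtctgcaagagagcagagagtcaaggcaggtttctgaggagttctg

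Rsad2 held 1 match and Ifit1 2 matches, upstream of the start, and these letters were not in the Oasl1 window. Usp18 had no entry. Over the list, 19 members had a promoter in the table and 11 of them (57.9%) held the core, which occurs in 3.4% of all 32851 promoters and in 4.0% of all 27025 genes when any promoter of a gene counts. Among the members that rose 9 of 16 held it, and among those that fell 2 of 3. A match is a description of the letters, not a site of binding.

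**Figure D3:**
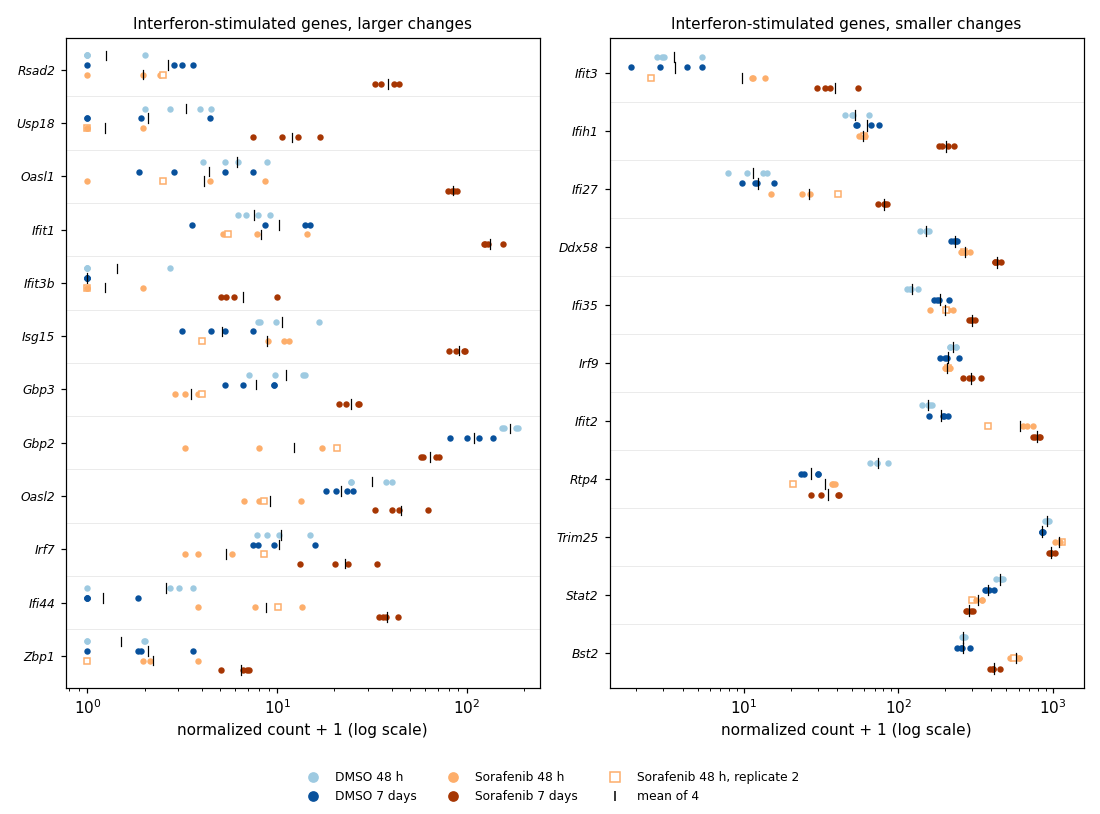
Normalized counts + 1 (log scale) of 23 of the interferon-stimulated genes in each of the 16 libraries, coloured by group, with a bar at each group's mean and an open square for replicate 2 of sorafenib at 48 hours. For Rsad2, Oasl1, Ifit1 and Isg15 the 4 libraries of sorafenib at 7 days stand apart to the right of the 12 others, which overlap.

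A pair of chemokine genes that interferon and NF-κB signalling both induce rose as well. Cxcl10 (chr5:92494497-92496748, GRCm39), which draws T cells, read 12.6, 13.6, 16.2 and 10.2 at 48 hours and 244, 255, 242 and 263 at 7 days. Ccl5, another T cell attractant, read 1.4, 4.54, 11.4 and 3.41, then 101, 128, 122 and 117. The times were fully apart for both, with log2 changes of 4.23 ± 0.13 and 4.34 ± 0.28. Cxcl10 moved alike in DMSO but less (1.55, difference 2.67, adjusted p = 2.44e-07), and Ccl5 was not called there (0.27, difference 4.06). Of 16 chemokine and cytokine genes 8 rose and 4 fell in sorafenib, and 10 rose and 0 fell in DMSO. The monocyte attractant Ccl2 rose in both treatments, by 1.45 in sorafenib and 3.40 in DMSO, and Cxcl12 fell in sorafenib (−0.61) while it rose in DMSO (1.22).

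Antigen presentation genes moved less. Of 12 class I genes 5 rose and 1 fell, led among those with ample counts by H2-D1, a heavy chain, which read 297, 178, 311 and 294 at 48 hours and 674, 642, 694 and 696 at 7 days. The times did not overlap, and the log2 change was 1.30 with replicate 2 at 48 hours and 1.16 without it. DMSO was not called (0.30, adjusted p = 0.117) but was called higher in the fit without that library (0.30, adjusted p = 0.014), and the difference was 1.00. Of the 12, 8 lie in the stretch low in replicate 2, and H2 genes are close copies of each other. Nlrc5, the class I transactivator, and Tap2, a peptide transporter, were called from means of 4.6 and 7.94 normalized counts at 7 days, and the call for Tap2 was lost without replicate 2.

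Cholesterol synthesis fell as a block. All 25 genes of the list were lower at 7 days than at 48 hours of sorafenib, against 22.3% of all genes, with a median log2 change of −0.93. In DMSO 10 were lower and 4 higher, the median was −0.06, and the difference of the time changes was called for 20 of the 25, each more negative in sorafenib. The list was already lower in sorafenib than in DMSO at 48 hours, and its summed level was 122697 to 125187 in DMSO at 48 hours, 116041 to 121928 in DMSO at 7 days, 51425 to 56159 in sorafenib at 48 hours and 26923 to 28329 in sorafenib at 7 days. No 2 of the sorafenib and DMSO ranges overlapped.

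Hmgcs1, which makes the HMG-CoA that enters the pathway, read 4751, 5010, 4845 and 5227 at 48 hours and 2033, 2170, 2122 and 1949 at 7 days. The 2 times were well apart (−1.26 ± 0.04, adjusted p = 3.45e-15), and DMSO stayed between 15031 and 16440 at both times without a call. Stard4, a carrier of cholesterol between membranes, read 1981, 1244, 1992 and 2052, then 696, 744, 695 and 727. It lies on chromosome 18, in the stretch that was low in replicate 2, and changed by −1.35 with and −1.49 without that library, while DMSO moved alike but little (−0.23, difference −1.11).

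The regulator Srebf2 itself changed by −0.97 (−1.11 without replicate 2) and was not called in DMSO (−0.19). The smallest falls were in Ebp (−0.28), Hsd17b7 (−0.32) and Pmvk (−0.34). Of these Hsd17b7 moved the opposite way in DMSO (0.57), and 25 of the 25 members were again called without replicate 2.

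**Figure D4:**
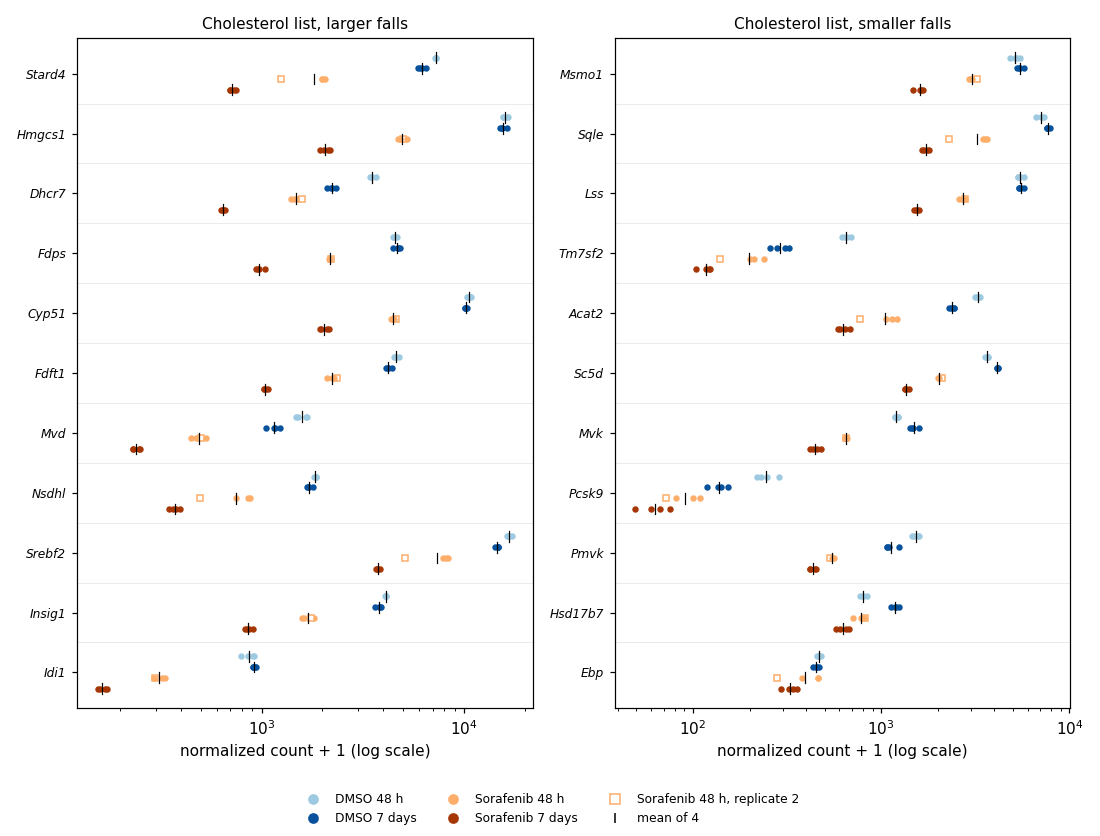
Normalized counts + 1 (log scale) of 22 genes of the cholesterol list in each library, drawn as in the plot of interferon-stimulated genes. In most rows the order from right to left is DMSO at either time, sorafenib at 48 hours and sorafenib at 7 days, and for Hmgcs1 the last group sits between 1949 and 2170.

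Promoters of the 3 cholesterol genes with the largest change among those with an entry are given with CCAAT boxes and the sterol element TCACCCCAC in capitals, on either strand, in the same RefSeq windows. Dhcr7, which makes cholesterol from 7-dehydrocholesterol, has 3 entries, and the first is shown.
Hmgcs1, chr13:119690101-119690400, + strand: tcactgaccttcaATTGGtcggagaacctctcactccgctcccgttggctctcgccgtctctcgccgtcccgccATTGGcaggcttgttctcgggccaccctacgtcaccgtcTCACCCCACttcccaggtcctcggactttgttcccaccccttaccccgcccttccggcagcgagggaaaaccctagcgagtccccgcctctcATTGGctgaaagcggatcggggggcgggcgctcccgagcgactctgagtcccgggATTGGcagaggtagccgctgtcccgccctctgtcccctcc
Dhcr7, chr7:143822917-143823216, + strand: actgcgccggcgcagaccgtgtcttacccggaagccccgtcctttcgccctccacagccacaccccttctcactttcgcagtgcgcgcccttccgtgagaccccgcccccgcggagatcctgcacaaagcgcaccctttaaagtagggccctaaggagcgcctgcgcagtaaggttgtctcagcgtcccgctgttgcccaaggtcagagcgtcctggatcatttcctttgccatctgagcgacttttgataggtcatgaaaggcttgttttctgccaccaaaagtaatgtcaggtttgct
Cyp51, chr5:4104648-4104947, - strand: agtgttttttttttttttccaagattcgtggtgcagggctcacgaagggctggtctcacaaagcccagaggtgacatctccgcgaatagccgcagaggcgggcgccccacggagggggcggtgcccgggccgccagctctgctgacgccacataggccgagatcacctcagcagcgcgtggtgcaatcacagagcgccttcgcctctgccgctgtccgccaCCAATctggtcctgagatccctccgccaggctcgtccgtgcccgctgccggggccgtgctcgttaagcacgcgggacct

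Hmgcs1 held 5 matches, 1 of the sterol element and 4 of the CCAAT box, Cyp51 held 1 CCAAT box and the Dhcr7 window held neither. Stard4 and Fdps had no entry. Of the 17 members with a promoter, 16 (94.1%) held a CCAAT box in at least 1 window, against 41.1% of all genes (37.4% of promoters), and 1 held the sterol element as spelled here, against 0.6% of all genes.

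Fatty acid genes went the same way. Of 16 genes of fatty acid synthesis and desaturation 11 fell and 2 rose (median −0.41), against 6 and 4 in DMSO. Scd1, which puts the first double bond into stearate, read 4693, 2752, 4467 and 4622 at 48 hours and 1940, 2152, 2092 and 1962 at 7 days. Its 7-day libraries were all below those of 48 hours, and its change was −1.02, or −1.17 without replicate 2. Elovl6, which lengthens palmitate, changed by −1.01 ± 0.04 and Fads2, a desaturase of long polyunsaturated chains, by −0.91 (−1.06 without replicate 2). Scd1 moved alike in DMSO to a lesser degree (−0.29), and Elovl6 and Fads2 were not called there (0.02 and 0.05). Scd1 has close paralogs that may share reads.

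Of 21 enzymes that remodel phospholipids 8 fell and 2 rose, against 10 and 5 in DMSO, and 22.3% of all genes fell. Of the 8, 4 moved alike in DMSO, 1 the opposite way and 3 were not called there. Lpcat3, which loads polyunsaturated chains onto lysophospholipids, went from 1225 ± 43.9 to 735 ± 35.9 (−0.74) and moved alike in DMSO (−0.20, difference −0.54). Lpcat2 (−0.98) and Lpcat4 (−0.66) were not called in DMSO. Pla2g4a, the cytosolic phospholipase that releases arachidonic acid, rose from 1454 ± 71 to 1928 ± 26.5 (0.41) and moved the opposite way in DMSO (−0.16). Among lipid storage genes 5 of 19 fell and 2 rose, a share of falls near the 22.3% of all genes, with 10 and 3 in DMSO and 4 of the 5 alike there. Lpin1, a phosphatidate phosphatase, read 320, 337, 321 and 306, then 105, 141, 98 and 124, a fall shared with DMSO (−1.44 and −0.67).

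The glycerol-3-phosphate shuttle genes moved apart from each other. Gpd1l, a cytosolic glycerol-3-phosphate dehydrogenase, read 1573, 1567, 1580 and 1579 at 48 hours and 1126, 1088, 1102 and 1097 at 7 days. This change of −0.51 ± 0.03 set all 7-day libraries below all 48-hour libraries, while DMSO rose (0.21, difference −0.72, adjusted p = 2.6e-10). Gpd1, its paralog, was low throughout, with 11.2, 16.6, 8.57 and 4.54, then 16.9, 27.6, 17.5 and 16.7. Its rise of 1.03 ± 0.30 (1.32 without replicate 2) was not called in DMSO, nor was the difference. Gpd2, the mitochondrial partner, was 1954 ± 32 and 1977 ± 45.9 (0.02, adjusted p = 0.724). The aquaglyceroporin genes Aqp3 and Aqp9 rose from few counts, 3 to 22 summed reads for Aqp3 (ratio 5.66, counting interval 1.7 to 29.5), and Gk, Aqp7 and Pgp were not called.

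Among further genes of lipid and redox metabolism, Pck2, the mitochondrial PEP carboxykinase, read 7710, 8438, 7772 and 7926, then 4449, 4465, 4490 and 4660. It changed by −0.82 ± 0.04 and was not called in DMSO, where it stood at 2215 and 2349. Slc7a11, the cystine transporter that feeds glutathione synthesis, rose in both, by 0.42 in sorafenib and 2.27 in DMSO. Its means were 1574 and 2106 in sorafenib and 88.6 and 426 in DMSO. Gpx4, which repairs lipid peroxides, was not called in sorafenib (0.06) and fell in DMSO (−0.21). Slc3a2, Phgdh, Mgll, Vldlr, Glo1, Hagh and Ldhd were not called either, with log2 changes of −0.51 to 0.17, and without replicate 2 Gpx4 and Phgdh were called higher (0.08 and 0.10) and Vldlr lower (−0.26). Pck1 had at most 2 counts in any library and was not tested.

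Among genes whose normalized count averaged 100 or more over the 8 sorafenib libraries, Angptl7 fell most. Angptl7 (chr4:148579639-148584923), a secreted glycoprotein of the extracellular matrix, read 693, 814, 548 and 769 at 48 hours and 5.62, 4.87, 14.9 and 8.85 at 7 days. The groups were far apart (log2 −6.32 ± 0.21, adjusted p = 4.96e-15). DMSO moved alike but by −0.49, from 7195 to 5109. Eln, which encodes elastin, read 2698, 3283, 2644 and 3180, then 198, 167, 175 and 158. Its change of −4.08 ± 0.08 had no counterpart in DMSO (−0.09, adjusted p = 0.268). Aldh1a2, which makes retinoic acid, fell from 536 ± 43.1 to 24.2 ± 9.47 (−4.45), with −0.24 in DMSO. Col8a2, a short-chain collagen, fell in both, by 4.61 on the log2 scale in sorafenib and 2.38 in DMSO.

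**Figure D5:**
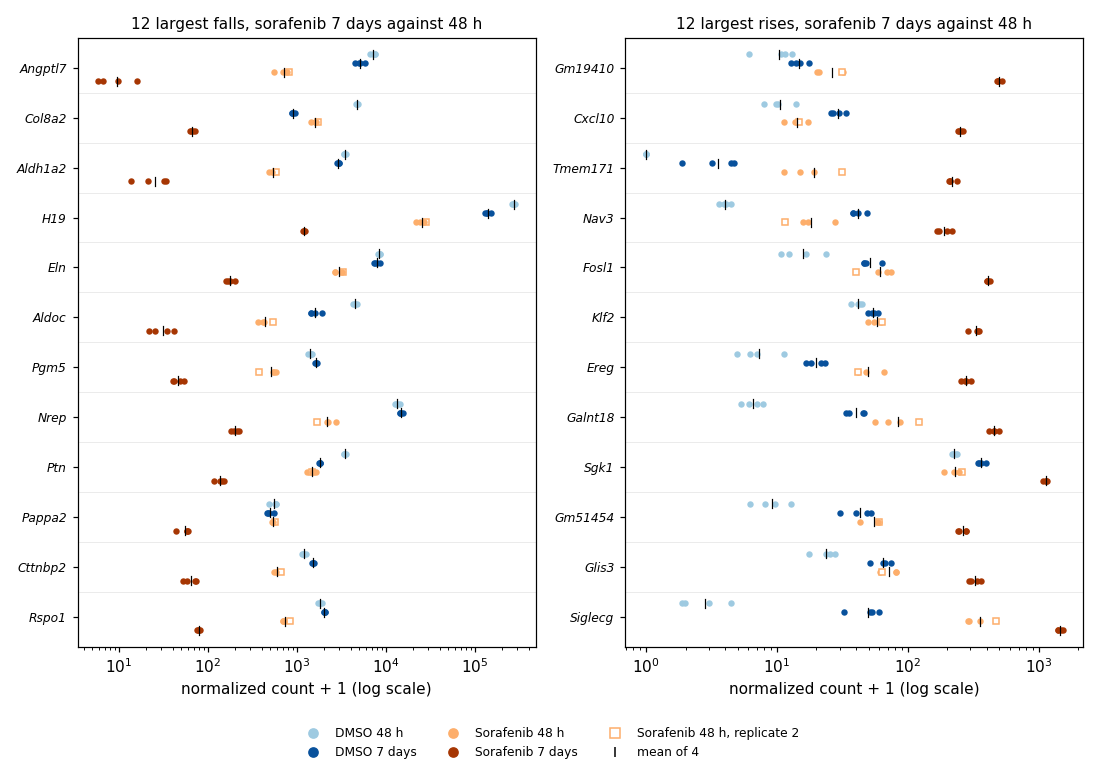
Normalized counts + 1 (log scale) by library of the 12 genes with the largest falls (left) and the 12 with the largest rises (right) from 48 hours to 7 days of sorafenib, chosen for that change among genes that averaged 100 or more over the 8 sorafenib libraries. For the falls the order is mostly DMSO, then sorafenib at 48 hours, then sorafenib at 7 days, as for Angptl7 with 4.87 to 14.9 at 7 days. Symbols are as in the plot of interferon-stimulated genes.

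The other large falls were Aldoc, a glycolytic aldolase (−3.80), Pgm5, a structural relative of phosphoglucomutase (−3.50), Nrep (−3.46), the growth factor gene Ptn (−3.43), Pappa2, a protease that frees IGF from its binding proteins (−3.32), Cttnbp2 (−3.24) and Rspo1, an amplifier of WNT signalling (−3.23). Aldoc and Ptn moved alike in DMSO by smaller amounts (−1.49 and −0.93), Nrep and Pappa2 were not called there, and Pgm5, Cttnbp2 and Rspo1 rose there (0.21, 0.35 and 0.17). The difference of the time changes was called for each of the 12, from −5.83 in Angptl7 to −2.23 in Col8a2. Without replicate 2 the log2 changes of Pgm5 and Nrep, which lie in the stretch that was low there, were −3.61 and −3.57.

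Collagens and other matrix genes fell with them, 21 of 27 against 3 that rose (median −0.56). In DMSO 15 rose and 8 fell (median 0.20). Of the 21, 8 moved alike in DMSO, 9 moved the opposite way and 4 were not called there, and the difference was called for 20. Col3a1, a fibrillar collagen, read 44859, 50306, 43837 and 46649 at 48 hours and 10061, 10168, 10028 and 10465 at 7 days. The 2 times did not overlap (−2.19 ± 0.04, adjusted p = 3.19e-19), and DMSO moved alike but less (−0.67). Col6a2, a chain of the microfibrillar collagen VI, changed by −2.20 and Mmp2, a gelatinase, by −1.83, with −0.46 and −1.68 in DMSO. Postn (−1.61) and Tnc (−1.75), which encode matrix proteins of remodelling tissue, rose in DMSO by 0.79 and 1.71. Members that rose included Thbs1 and Timp1, by 0.88 and 0.81, both alike in DMSO.

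Markers of fibroblasts and stellate cells overlap this list and moved with it. Of 8 measured, 7 fell and 0 rose in sorafenib, and their summed level was 125938 to 139236 at 48 hours and 63524 to 65071 at 7 days, against 115918 to 117740 and 89736 to 94351 in DMSO. Most of each sum was Col1a1 and Col3a1. The part of these markers in the matrix result was not tested. Lum, a proteoglycan gene, had 29 reads over the libraries of 48 hours and 0 over those of 7 days, at least 2.62-fold lower against a floor of 3 counts per library, and it fell in DMSO as well. Of 9 endothelial markers 2 rose, a share near the 17.5% of all genes, 1 alike in DMSO and 1 the opposite way. The sum over the 9 was 140 to 175 at 48 hours and 231 to 266 at 7 days. Most of that sum was Kdr, the VEGF receptor gene, with 85 to 120 counts per library at 48 hours and 163 to 270 at 7 days (0.71, DMSO −0.61), while Pecam1 and Cdh5 had at most 6 and 0 counts in any sorafenib library. Of the 3 blood markers measured 1 was called, Itgam, from 1 and 14 reads, and that call was lost without replicate 2.

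Of 18 markers of liver progenitors and bile duct 7 fell and 2 rose, against 7 and 3 in DMSO. H19 (chr7:142129262-142133957), a noncoding RNA among the most abundant in these cells, read 24263, 28344, 21664 and 26908 at 48 hours of sorafenib and 1208, 1184, 1185 and 1229 at 7 days. The groups lay more than an order of magnitude apart (−4.40 ± 0.07, adjusted p = 2.59e-19). DMSO moved alike by −0.96, from 271590 ± 7278 to 139240 ± 9274 (SD, n = 4), and the difference was −3.43. Its imprinted neighbour Igf2, a fetal growth factor, went from 11820 ± 467 to 2871 ± 132 (−2.04, DMSO −0.55). Dlk1, a surface protein of hepatoblasts named here after its values were seen, went from 10444 ± 847 to 4020 ± 84.9 (−1.38, DMSO −0.94). Cdkn1c, an imprinted inhibitor of the cell cycle, went from 1607 ± 148 to 298 ± 12.1 (−2.43, DMSO −1.67). The difference was called for all 4 genes.

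Among 18 liver progenitor and bile duct markers, which include H19, Igf2 and Dlk1, 7 fell and 2 rose. Krt7, a bile duct keratin gene, changed by −2.13 and rose in DMSO by 0.96, while Krt19 fell in both (−0.60 and −0.85). Spp1, which encodes osteopontin, and Sox9, a factor of bile duct cells, rose in both, by 1.23 and 0.45 in sorafenib and by 2.09 and 0.72 in DMSO. Of 16 hepatocyte plasma protein and liver factor genes 3 rose and 3 fell, against 5 and 4 in DMSO. These shares were near those over all genes in sorafenib, of which 17.5% rose and 22.3% fell. Trf and Apoe, carriers of iron and of lipid, changed by −1.17 and −1.14. Of the 3 that fell, 2 moved alike in DMSO and 1 was not called there.

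The largest rise among genes with ample counts was in Gm19410, an uncharacterised gene, which read 30.9, 30.2, 20 and 19.3 at 48 hours and 519, 490, 487 and 482 at 7 days. The groups were well apart (4.34 ± 0.12, adjusted p = 3.72e-16), and DMSO was not called (0.54). Cxcl10 followed. Tmem171 (3.60), Nav3 (3.47), Galnt18 (2.47) and Gm51454 (2.26) rose in DMSO too, and their difference was not called. Tmem171 had 0 counts in the 4 DMSO libraries of 48 hours. Klf2, a zinc finger factor, went from 56.7 ± 6.36 to 328 ± 29.7 (2.55) and Sgk1, a kinase downstream of PI3K and glucocorticoids, from 227 ± 29.2 to 1128 ± 37.3 (2.31). DMSO moved alike for both by 0.40 and 0.67, with differences of 2.15 and 1.64. Glis3 rose by 2.17 in sorafenib and 1.46 in DMSO. Siglecg, a sialic acid receptor, rose by 2.05 in sorafenib, from 352 ± 86.9 to 1443 ± 60.5, and by 4.63 in DMSO, from 1.84 ± 1.2 to 48.1 ± 11.8.

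Genes of the ERK response rose in both treatments, 14 of 22 in each, with 4 and 5 that fell. Fosl1, which encodes the AP-1 subunit FRA1 and is driven by ERK, read 73, 39.3, 68.5 and 57.9 at 48 hours and 402, 398, 419 and 408 at 7 days. All 7-day libraries were above all of 48 hours (2.74 ± 0.13, 2.62 without replicate 2), and DMSO rose by 1.76 (difference 0.98, adjusted p = 0.01). The EGFR ligand genes Ereg, Areg and Hbegf rose by 2.49, 2.04 and 1.05. Areg did so from means of 2.29 to 8.96 with overlap, and its edgeR call was lost without replicate 2 at 7 days (1.63, adjusted p = 0.053). Ereg and Hbegf rose in DMSO as well, by 1.58 and 1.43. Areg was not called there (1.46), nor was its difference of the time changes (edgeR adjusted p = 0.771). Of the feedback inhibitors, Dusp4 (0.91) and Spry4 (0.37) rose and Spry1 fell (−0.79), which rose in DMSO (0.41). Fos, Ccnd1 and Spry2 rose in sorafenib (0.54, 0.57 and 0.46) and fell in DMSO (−1.03, −0.24 and −0.27). An AP-1 element, TGA, any base, TCA, was in 0 of the 12 promoters of this list held in the table and in 9.0% of all genes.

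Among the kinases that sorafenib inhibits, 7 of 15 fell and 5 rose, against 5 and 5 in DMSO. Over all genes 22.3% fell and 17.5% rose in sorafenib. Ret, a receptor tyrosine kinase, read 4.21, 0, 3.81 and 3.41 at 48 hours and 30.4, 41.4, 22.7 and 25.6 at 7 days. The times did not overlap (3.27 ± 0.40, adjusted p = 1.44e-06), DMSO was not called (0.38), and the difference was 2.90. The other 4 that rose did so by at most 0.71, the value of Kdr. The PDGF receptor genes Pdgfra (−1.21) and Pdgfrb (−1.07) also fell in DMSO (−1.07 and −1.22). Braf fell in sorafenib (−0.28) and rose in DMSO (0.47). Of 19 growth factor receptor and ligand genes 12 fell and 1, Tgfa, rose, against 6 and 8 in DMSO. Of the 12, 5 moved alike in DMSO, 6 the opposite way and 1 was not called there.

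Stress programs went different ways. NRF2 targets, which detoxify and restore redox balance, rose in 16 of 24 members and fell in 4, and 14 of the 16 rose in DMSO too. Srxn1 (1.66), Nqo1 (1.39) and Hmox1 (1.03) led, with 2.00, 0.84 and 1.45 in DMSO. Gsta3, a glutathione transferase, fell (−1.40) and rose in DMSO (2.01). Cytosolic heat shock genes rose in 10 of 14 with 1 fall, against 17.5% of all genes that rose, and in DMSO 12 rose and 0 fell, 9 of the 10 among them. Hspa1a (1.62, DMSO 0.68) and Hspa1b (1.03, DMSO 0.24) led, and are near copies of each other that share reads. Of the 19 NRF2 targets with a promoter, 9 (47.4%) held the letters TGAC, any 3 bases, GC of the antioxidant element, against 14.0% of all genes.

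ATF4 targets of the integrated stress response did not move as a block in sorafenib, with 6 up and 7 down of 24, whereas 18 rose and 2 fell in DMSO. The difference was called for 19, and 16 of these were more negative in sorafenib. The level of the list was nevertheless higher in sorafenib at both times. Its sum was 127402 to 136390 at 48 hours and 135745 to 137251 at 7 days of sorafenib. In DMSO it was 44979 to 46876 and 58756 to 60373. Fgf21, a stress hormone that ATF4 induces, read 153, 181, 185 and 152 at 48 hours and 20.2, 32.5, 31.5 and 31.5 at 7 days. It changed by −2.51 ± 0.18 without overlap, and DMSO, at 8.67 ± 4.3 and 11.7 ± 4.79, was not called. Trib3, Chac1 and Ddit3 fell by 0.23, 0.18 and 0.15 on the log2 scale in sorafenib and rose in DMSO by 0.30, 0.63 and 0.51. Of 20 aminoacyl-tRNA synthetase genes 5 rose and 5 fell in sorafenib, against 16 and 1 in DMSO, and of 15 genes of serine and folate metabolism 5 rose and 2 fell, against 10 and 1. Without replicate 2 at 48 hours 8 rose and 5 fell in the first list and 8 and 3 in the second, and 8 and 8 of the ATF4 targets. The summed levels of the synthetase and the serine and folate lists were higher in sorafenib than in DMSO at both times. Chaperones of the endoplasmic reticulum gave 5 up and 6 down of 20, against 13 and 4 in DMSO. In sorafenib 17.5% of all genes rose and 22.3% fell.

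DNA replication genes rose slightly and mitotic genes fell slightly. Of 29 replication genes 21 rose and 0 fell, with called changes of 0.11 to 0.56, while 9 rose and 8 fell in DMSO. Ccne2, a cyclin of S phase entry (0.56), Cdc6, which loads the replicative helicase (0.55), and Fen1, a flap nuclease (0.50, 0.35 without replicate 2), led, and each rose in DMSO too (0.71, 0.32 and 0.37). Of 26 mitotic genes 17 fell and 3 rose, with called falls of −0.52 to −0.08, against 8 and 9 in DMSO. Bub1b, a checkpoint kinase, fell in both (−0.52 and −0.40), and Plk1, a kinase of mitotic entry, fell in sorafenib (−0.42) and rose in DMSO (0.15). Birc5 (0.44), Foxm1 (0.33) and Ndc80 (0.32) rose, 2 of the 3 alike in DMSO and 1 not called there.

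Promoters of these lists held different letters. An E2F sequence (TTT followed by CCCGC or GGCGC, or TTCC followed by CGCC, on either strand) was in 13 of 24 replication promoters (54.2%), against 3.7% of all genes, and the mitotic CHR element TTTGAA was in 16 of 21 mitotic ones (76.2%), against 20.2%. CCAAT boxes were in 17 of the 21 (81.0%), against 41.1%. Among CDK inhibitors and p53 targets, in a line labelled p53 -/-, 9 of 20 fell and 3 rose, against 8 and 9 in DMSO. Cdkn1c, Btg2 (−1.67) and Sesn1 (−1.22) fell most, each alike in DMSO.

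Hypoxia targets fell in DMSO and changed less in sorafenib. Of 15 targets of HIF, the oxygen-sensing factor, all 15 fell in DMSO (median −1.67), while in sorafenib 8 fell and 3 rose (median −0.16), and the difference was called for 14. Pdk1, which keeps pyruvate out of mitochondria, read 1643, 1789, 1706 and 1712 at 48 hours of sorafenib and 1218, 1270, 1249 and 1241 at 7 days, a change of −0.46 ± 0.07. In DMSO its mean went from 6111 to 690 (−3.15). Bnip3, a mitophagy receptor, was 288 ± 21.8 and 284 ± 36.6 in sorafenib and went from 2730 to 191 in DMSO. Adm (0.91) and Ndrg1 (0.40) rose in sorafenib and fell in DMSO (−1.90 and −2.09). For Adm the sorafenib libraries of the 2 times overlapped (5.68 to 15.4 and 14.6 to 23.6), and the edgeR call was lost without replicate 4 at 48 hours (0.72, adjusted p = 0.0993) or without replicate 3 or 4 at 7 days (adjusted p = 0.0719 and 0.0792). The DMSO cultures ended below the sorafenib cultures for Pdk1 and Bnip3 after starting above them.

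Glycolytic genes followed the same pattern, with 18 of 20 lower in DMSO (median −0.91) and 7 up and 9 down in sorafenib (median −0.05). The summed level of the list was 353309 to 375444 at 48 hours and 199560 to 210851 at 7 days in DMSO. In sorafenib that sum was already low at 48 hours, at 189895 to 201456, and was 191503 to 194105 at 7 days. Hk1, a hexokinase, read 1358, 1406, 1353 and 1282, then 2029, 1968, 1983 and 2101. Its rise of 0.58 had no overlap between the times and stood against a fall of 0.96 on the log2 scale in DMSO. Pgk1 (0.41), Slc2a1, the glucose transporter GLUT1 (0.26), and Ldha (0.10) also rose and fell in DMSO by 1.44, 1.43 and 1.07.

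Genes of the TCA cycle and of beta-oxidation fell by small amounts. Of 21 TCA cycle genes 11 fell and 1 rose in sorafenib, while 3 fell and 13 rose in DMSO, and 7 of the 11 moved the opposite way there. Suclg2, a subunit of succinyl-CoA synthetase, changed most (−0.54, DMSO −0.40), and Cs, citrate synthase, changed by −0.15 against 0.58 in DMSO. Beta-oxidation fell in 12 of 22 genes with 1 rise, 10 of the 12 alike in DMSO, led by the short-chain and medium-chain acyl-CoA enzymes Acads (−0.61), Echs1 (−0.57) and Acadm (−0.53). Of 36 nuclear genes of complex I 7 fell and 1 rose, a share of falls below the 22.3% of all genes, and 13 and 7 did so in DMSO. Without replicate 2 the complex I counts were 13 and 2, and 14 of the genes lie in the stretch that was low there. Of 35 genes of complexes III and IV and ATP synthase 13 fell and 0 rose, or 19 and 1 without replicate 2, against 10 and 9 in DMSO. Mitochondrially encoded genes were not analysed here.

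Cytosolic ribosomal protein genes fell in 34 of 54 with 1 rise (44 and 1 without replicate 2, with 12 of the genes in the low stretch), by −0.50 to −0.11, and 32 of the 34 fell in DMSO too, where 47 fell. Processed copies of these genes are common in the genome and may take some of their reads. Ribosome biogenesis genes rose in 8 of 24 and fell in 4, against 21 and 1 in DMSO, and the difference was called for 19, each more negative in sorafenib. Rrp12, an exporter of ribosomal subunits, rose by 0.56 in sorafenib and 1.30 in DMSO.

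Lysosomal genes fell in 14 of 27 and rose in 5, against 13 and 7 in DMSO, where 10 of the 14 fell too. Tfeb, the factor that drives them, fell (−0.71) and rose in DMSO (0.21), and Gpnmb rose in both (1.40 and 2.06). The summed level of the lysosomal list was higher in sorafenib than in DMSO at both times. It was 114211 to 116738 at 48 hours and 110864 to 111459 at 7 days of sorafenib. In DMSO it was 70249 to 71073 and 67537 to 68834. Over all genes 17.5% rose and 22.3% fell in sorafenib. Autophagy genes gave 7 up and 3 down of 17, against 5 and 8 in DMSO. The receptor gene Optn rose by 0.74 and was not called in DMSO (0.30). Its difference of the time changes was not called either (0.43, edgeR adjusted p = 0.0702), but was called without replicate 2 (0.47, adjusted p = 0.0165). Of 11 iron genes 6 rose and 3 fell, against 5 and 4 in DMSO. Tfrc, the transferrin receptor, rose by 0.84 (0.70 without replicate 2) and fell in DMSO (−0.35), and Slc40a1, the iron exporter, fell in both (−1.25 and −0.70). Of 12 ferroptosis defence genes 3 rose and 5 fell, against 6 and 5 in DMSO, with Nqo1 and Scd1, described above, at the extremes of the called members. Metallothionein Mt2 rose (1.18), with 25 to 32 and 28 to 47 counts per library in DMSO at 48 hours and 7 days. Mt1 rose (0.37) while it fell in DMSO (−1.06). Clock genes gave 6 up and 7 down of 16, against 3 and 9 in DMSO, with Hlf, Dbp and Per3 at −1.53, −1.33 and −1.32. Of the 7 that fell, 5 moved alike in DMSO and 2 were not called there. In DMSO Dbp had 310 to 339 counts per library at 48 hours and 58 to 79 at 7 days. Hlf had 300 to 441 and 379 to 513 there. Drug efflux and xenobiotic genes gave 6 up and 4 down of 19, against 8 and 2 in DMSO.

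Targets of YAP, which responds to cell shape, and of TGF-beta, a matrix signal, had time changes that were mostly more negative in sorafenib than in DMSO. Of 14 YAP targets 10 rose and 3 fell in sorafenib, 13 and 1 in DMSO, and the difference was called for 13, of which 11 were more negative in sorafenib. The level of the list was nevertheless higher in sorafenib at both times. Its sum was 109962 to 117553 at 48 hours and 137749 to 140213 at 7 days of sorafenib. In DMSO it was 37762 to 39140 and 70313 to 77667. Ccn2 rose by 0.41 in sorafenib and 3.78 in DMSO, and Ankrd1 by 0.70 and 4.01. Ankrd1 had 5154 to 12179 counts per library at 48 hours and 14458 to 20223 at 7 days of sorafenib. In DMSO it had 78 to 117 and 1137 to 2025. TGF-beta targets gave 6 up and 6 down of 14, against 11 and 1, and the difference was more negative in sorafenib for 11 and more positive for 1. Their summed level was also higher in sorafenib than in DMSO at both times. Mesenchymal genes gave 6 up and 5 down of 16, against 9 and 2 in DMSO, with Snai2 up (1.13) and down in DMSO (−0.89). In sorafenib 17.5% of all genes rose and 22.3% fell.

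The genes that moved oppositely with the largest difference were Ltbp2, Itih2, Tagln, Cd55 and Pgm5. Ltbp2, a matrix protein that binds latent TGF-beta, read 498, 676, 632 and 576, then 237, 230, 234 and 232 in sorafenib (−1.35), while its DMSO mean went from 62.7 to 447 (2.83). Itih2, a hyaluronan-binding plasma protein, read 70.2, 62, 59 and 55.6, then 229, 210, 238 and 252 (1.92), while DMSO went from 28.2 to 5.65 (−2.33). Tagln, a smooth muscle actin-binding protein, went from 2145 ± 361 to 1526 ± 264 in sorafenib (−0.49) and from 146 ± 17 to 1343 ± 56.9 in DMSO (3.21). Cd55, which shields cells from complement, fell from 2265 ± 127 to 275 ± 26.9 (−3.04) and rose in DMSO (0.57). The differences ran from −4.18 in Ltbp2 to 4.25 in Itih2.

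A few genes went from near the floor to ample counts or the reverse. Prr32, of unknown function, read 1.4, 0, 1.9 and 3.41 at 48 hours and 97.9, 89.3, 101 and 74.8 at 7 days of sorafenib, with 0 counts in all 8 DMSO libraries. Its position on chromosome X lies in the stretch that was low in replicate 2, and the log2 change was 5.55 with and 5.25 without that library. Cd200, a surface ligand that restrains myeloid cells, read 81.4, 57.5, 61.9 and 67, then 0, 1.62, 0.875 and 0, with 3 reads in all at 7 days. Its fitted log2 change of −6.34 was the lowest of all genes tested (ratio of summed counts 95.1, counting interval 32.1 to 465). DMSO was not called (249 and 227). Mfap4, a microfibril protein, fell to 2.04 ± 0.669 from 75.4 ± 5.5, and fell in DMSO as well (−3.62).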

How the data were processed

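RNA was sequenced from 16 libraries, 4 in each of 4 groups. According to the study's methods and the submitters' processing notes, reads were aligned with STAR 2.7.1a to GRCm39 and counted with featureCounts 2.0.6, and the authors deposited raw counts per gene. The strand setting and annotation are not given in the sources used here, so overlapping genes cannot be told apart. The study analysed its counts with DESeq2 1.40.2.

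Groups came from the labels. Genes with at least 10 counts in total were tested in 1 model over the 16 libraries with edgeR 4.0.16 (R 4.3.3; TMM scaling, quasi-likelihood test), and calls are at a Benjamini-Hochberg FDR under 0.05. Adjusted p-values in the text are from this fit. Normalized counts are counts scaled by TMM library size, ± is the SD of 4 libraries for levels and the SE for log2 fold changes, and "without replicate 2" is the same fit without replicate 2 of sorafenib at 48 hours. "Alike" and "opposite" compare calls in DMSO. On simulated counts with 200 changed genes among 20064, 190 were called, with 8 false calls. Only genes with ample expected counts were changed, in sorafenib at 7 days alone, and replicate 2 had no low stretch. In the data 39.7% of genes were called, so these rates do not carry over to them.

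Named genes were the 12 largest rises and falls among genes whose mean normalized count was 100 or more, the 3 called members of each list with the largest change, the 5 genes with the largest opposite changes, genes at or under 3 counts at 1 time with a mean of at least 50 at the other, Trp53, Myc and genes the study names. Other list members named in the text were chosen after their values were seen. The members and lists were chosen with earlier results of these data known. Counting intervals (exact, 95%) and floors of 3 counts cover counting error only. A few genes are counted in their lists but not reported here by name. Positions are GRCm39 and promoters GRCm38.p6. Alternatives were DESeq2 1.42.0, other scalings, filters and sample sets, a replicate block and each library left out.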

Additional observations from a re-analysis of the deposited data

Results flagged for a closer look

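The change from 48 hours to 7 days differed between sorafenib and DMSO, by the test of the difference itself, for 7515 genes, and for 25 of the 31 genes with the largest changes or largest opposite changes that were checked one by one. The difference, sorafenib minus DMSO on the log2 scale, was negative for Angptl7 (−5.83), Col8a2 (−2.23), Aldh1a2 (−4.21), H19 (−3.43), Eln (−4.00), Aldoc (−2.31), Pgm5 (−3.71), Nrep (−3.60), Ptn (−2.50), Pappa2 (−3.16), Cttnbp2 (−3.59), Rspo1 (−3.40), Siglecg (−2.58), Ltbp2 (−4.18), Tagln (−3.70), Cd55 (−3.61), Mfap4 (−1.46) and Cd200 (−6.21). It was positive for Gm19410 (3.80), Cxcl10 (2.67), Fosl1 (0.98), Klf2 (2.15), Sgk1 (1.64), Glis3 (0.71) and Itih2 (4.25). Siglecg, Fosl1, Cxcl10, Klf2, Sgk1 and Glis3 rose in both treatments, so for these the difference is one of size.

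In 3 of 124 groups of 4 libraries, 1 library stood apart from the other 3, where chance would mark about 1 in 20. They were Pappa2 in replicate 4 of sorafenib at 7 days (42.3 normalized counts), Fosl1 in replicate 4 of DMSO at 7 days (62.1) and Gm51454 in replicate 4 of sorafenib at 48 hours (42.0).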

How the results depend on the processing

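The counts of genes called kept within 1.5 times of those reported under every alternative run except a fold threshold. Requiring an absolute log2 change of at least 1 left 1727 genes in sorafenib, 2242 in DMSO and 1965 for the difference. DESeq2 called 8079, 10022 and 7634. Leaving out each library in turn gave 7355 to 9047 genes in sorafenib, 9419 to 11242 genes in DMSO and 7073 to 8761 genes for the difference, with the highest of each without replicate 2 of sorafenib at 48 hours. A replicate block gave 7809, 9871 and 7282. Same-numbered libraries of 48 hours and 7 days had correlations of −0.006 to 0.029 in sorafenib and −0.181 to 0.059 in DMSO. Same-numbered sorafenib and DMSO libraries were not compared, so pairing between the treatments was not tested. The directions that turned were those of uncalled genes. Aqp7 ran from −0.30 to 1.01 when a library was left out, and without replicate 2 of sorafenib at 48 hours Pgp (−0.0443 to 0.195 over the libraries left out), Slc3a2 (−0.0299 to 0.181) and Glo1 (−0.0709 to 0.120) took their lowest values. The causes were not tested. Calls at few counts or small changes (Itgam, Nlrc5, Cyp2b10, Fmo2, Plin5, Aqp3, Areg, Adm, Ankrd37, Il6, Tap2, Myc, Gk, Gpx4, Phgdh, Vldlr, Hagh, Mgll, Gpd2, Sdf2l1, Mtf1, Hars, Nars, Tars, Pcx, Ndufa11, Cox7a2l) depended on the setting. Depth limits genes of a few reads per library.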
